A study of Mus musculus with 8 samples.

Results

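The nuclear-encoded subunits of the mitochondrial respiratory chain and ATP synthase were examined in hearts of wild-type and Gpihbp1-/- mice. Members were the rows of the gene count table whose symbols begin with Nduf followed by a, b, c, s or v and a number, Sdha to Sdhd, symbols that begin with Uqcr, Cox4 to Cox8 or Atp5, and Cyc1 and Cycs, without predicted genes and pseudogene symbols. This gave 89 of 17190 listed genes: 39 of complex I, 4 of complex II, 9 of complex III, 19 of complex IV, 17 of complex V and cytochrome c (Cycs). Ndufa4 and Ndufa4l2 were counted with complex IV. The table uses older symbols for complex V, such as Atp5a1 and Atp5b for the alpha and beta subunits.

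The study sequenced polyadenylated heart RNA of male mice on a standard chow diet, 4 with the wild-type genotype (hearts numbered 2, 4, 5 and 6) and 4 with the Gpihbp1-/- genotype (hearts 1, 2, 3 and 4). The question was how the heart's transcripts respond when the gene is lost. GPIHBP1 is the capillary protein that holds lipoprotein lipase in place. Age, strain, litter and collection day are not given in the labels, and how the deletion was made is not given either, so p-values measure only the spread between these hearts. The deleted gene had 833 to 1951 estimated reads in the wild-type libraries and 0, 0, 1 and 0 in the knockout libraries.

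Oxidative phosphorylation makes most of the ATP of a beating heart. Complex I (NADH dehydrogenase) and complex II (succinate dehydrogenase) pass electrons to ubiquinone, complex III passes them to cytochrome c, and complex IV passes them to oxygen, while complex V uses the resulting proton gradient to make ATP. Complexes I, III, IV and V combine these nuclear-encoded subunits with a few encoded by mitochondrial DNA, and complex II is wholly nuclear-encoded. Several complex IV subunits exist as a form found in most tissues and a form of heart and skeletal muscle. In the table, 0 mitochondrially encoded genes were listed, so only the nuclear side was measured.

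Before the subunits are described, 3 libraries need naming. Total estimated counts ran from 9065561 to 13492971, and the scaling factor of the TMM method, which corrects for library composition, was 0.678 in wild-type 6 and 0.964 to 1.16 in the other libraries. The 16 cardiomyocyte markers were read in every library, and their summed level was 65674 TPM (a level scaled for transcript length and library total) in wild-type 2 and 67517 in knockout 2, against 125429 to 145546 in the other 6 libraries. Those same hearts had the highest sums of the 12 macrophage markers, 6239.8 and 5399 TPM against at most 970.1, and of the 12 fibroblast markers, 3557 and 4289.9 TPM against at most 1867. Wild-type 6 had the highest sum of the 9 erythroid markers, 18554 TPM against 1257 to 5049, with Epb42 and Ahsp at 0 in at least 1 library. The sum of the 8 atrial markers was 5032 TPM in wild-type 6, 5954 in wild-type 2 and 10811 in knockout 2, and at most 619 elsewhere. Myl7, Sln, Bmp10 and Fgf12 were at 0 in at least 1 library. The markers did not share this order. On TMM-scaled read counts per library total (CPM), Myl4 stood at 974 in wild-type 6, 2.37 in wild-type 2 and 1.97 in knockout 2. Over the 4 atrial markers read often enough to be tested, the median log2 CPM minus the gene's mean was 3.34, 0.098 and -0.38 in these libraries. The sums thus do not show knockout 2 as the most atrial heart. The median TPM over all listed genes was 1.93 in wild-type 6 and 4.63 to 6.82 elsewhere. In these bulk samples, fewer cells of a type and less RNA per cell cannot be told apart.

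The subunit genes were among the most abundant transcripts of these hearts. Their median level over the 8 libraries was 1479 TPM, against 5.45 TPM over all listed genes, and 40 of the 100 genes with the highest mean TPM were members. Per library, the 89 genes together held 14.2%, 22.2%, 18.5% and 28.2% of all TPM across wild-type hearts 2, 4, 5 and 6, against 22.2%, 11.9%, 20.4% and 20.2% across knockout hearts 1, 2, 3 and 4. The lowest shares were thus those of wild-type 2 and knockout 2 and the highest that of wild-type 6, and the range of the wild type enclosed 3 of the 4 knockout values.

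Levels per length differed between the complexes. The median member of complex IV stood at 3568 TPM and that of complex V at 3482, above complex III at 1329.7, complex I at 1083 and complex II at 543. Cycs, the mobile electron carrier, stood at 448 TPM. By mean TPM over the 8 libraries, the most abundant member of each complex was Ndufa3 (3984 TPM), Sdhb (1380.0), Uqcr11 (4895), Cox6a2 (8009) and Atp5g3 (6449). Ndufa3 and Sdhb led their complex in all 8 libraries. Uqcr10 led complex III in wild-type 2 and knockout 2, Cox7a1 led complex IV in knockout 3 and 4, and Atp5j2 (6411 TPM on average) led complex V in wild-type 2 and wild-type 6. These TPM values rest on very short effective lengths, such as 109 nt for Ndufa3 and 120.0 nt for Cox8b, so levels of the shortest transcripts depend on that correction. Effective length here is the length implied by the deposited counts and FPKM.

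Promoters are shown for 4 members as single examples: a common and a muscle isoform of different complex IV subunits, and a short and a long subunit. RefSeq promoters of assembly GRCm38.p6 were matched to 71 of the 89 members, and the 250 bases before the start site were searched on both strands for the palindromic NRF1 site, which is the longest run of capitals in the Cox6a1 sequence, the ETS site CCGGAAG to which GABP can bind and the site AAGGTCA of estrogen-related receptors. The sequences run 5′ to 3′ on the gene's strand, and capitals mark the matches.
Cox6a1, chr5:115348959-115349208, minus strand: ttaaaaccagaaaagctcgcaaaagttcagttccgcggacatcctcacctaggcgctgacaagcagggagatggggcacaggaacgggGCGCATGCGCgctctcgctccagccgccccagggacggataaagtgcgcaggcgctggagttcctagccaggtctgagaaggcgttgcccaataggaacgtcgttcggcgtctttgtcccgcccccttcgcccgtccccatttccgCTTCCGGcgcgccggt
Cox7a1, chr7:30183921-30184170, plus strand: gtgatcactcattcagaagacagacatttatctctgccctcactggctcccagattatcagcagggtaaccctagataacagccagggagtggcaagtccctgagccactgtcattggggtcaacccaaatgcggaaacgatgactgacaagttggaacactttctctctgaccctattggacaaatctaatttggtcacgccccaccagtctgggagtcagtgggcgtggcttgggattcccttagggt
Uqcr11, chr10:80406822-80407071, minus strand: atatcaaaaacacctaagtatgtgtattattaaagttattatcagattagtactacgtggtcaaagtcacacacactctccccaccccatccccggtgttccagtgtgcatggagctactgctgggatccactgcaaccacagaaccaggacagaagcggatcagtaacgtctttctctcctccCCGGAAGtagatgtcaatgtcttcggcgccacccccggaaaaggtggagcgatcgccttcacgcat
Sdhd, chr9:50603850-50604099, minus strand: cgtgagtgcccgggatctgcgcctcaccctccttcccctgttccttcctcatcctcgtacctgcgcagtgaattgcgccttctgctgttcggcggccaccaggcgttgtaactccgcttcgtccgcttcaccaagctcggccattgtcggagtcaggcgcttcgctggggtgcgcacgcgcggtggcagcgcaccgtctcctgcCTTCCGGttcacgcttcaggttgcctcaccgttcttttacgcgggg

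Cox6a1, the common isoform whose TPM was highest in wild-type 2 and knockout 2, held 1 NRF1 match and 1 ETS match, and the window of the muscle isoform Cox7a1 held none of the 3 motifs. No other matched member held both the NRF1 and the ETS site, so Cox6a1 does not stand for the common isoforms. Uqcr11 and Sdhd both held the ETS site and differed in their order of libraries: Uqcr11 was highest in wild-type 6, and Sdhd stood at 400.4, 301, 758 and 294 TPM across wild-type hearts 2, 4, 5 and 6, against 490.4, 474, 704 and 751 across knockout hearts 1, 2, 3 and 4, with wild-type 6 lowest. Over the matched members, 4 of 71 windows held the NRF1 site (5.63%, against 0.781% of 27025 promoters), 11 the ETS site (15.5% against 7.05%) and 5 the estrogen-related receptor site (7.04% against 4.05%). These matches describe the letters only.

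Between the genotypes, none of the subunit genes passed the test. Of 86 members that were read often enough to be tested, edgeR's quasi-likelihood F-test called 0 at an adjusted p under 0.05, with p adjusted over all 12826 genes, and DESeq2 also called 0. Of all genes 0.0312% passed, 0.0234% higher and 0.0078% lower in the knockout. At an unadjusted p under 0.05 there was 1 member, Cox6b2, with a log2 fold change below 0, against 0.904% of all genes (0.655% lower). DESeq2 gave 8 such members, against 1.75% of all genes. The log2 fold change (knockout minus wild type, on TMM-scaled read counts per library total, CPM) was below 0 for 78 of the 86 members, against 52.9% of all genes, and its median was -0.58 against -0.019 over all genes. Without wild-type 6, 33 of the 86 were below 0 and the median was 0.060.

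The remaining 3 members were hardly read. Ndufb4b, a copy of Ndufb4, had 2.98 and 3.44 estimated reads in knockout 1 and 3 and 0 elsewhere. Cox7b2 had 2, 3 and 2 reads in wild-type 5, knockout 1 and knockout 2 and 0 elsewhere. Ndufs6b, a copy of Ndufs6 that RefSeq lists as a pseudogene, had 3, 7, 2 and 38 reads across wild-type hearts 2, 4, 5 and 6, against 10, 1, 4 and 2 across knockout hearts 1, 2, 3 and 4. Estimated counts can divide reads between such copies. Those of Ndufb4, Ndufb4b and Ndufb4c held fractions, such as 2063.13 for Ndufb4 and 1962.87 for Ndufb4c in wild-type 2, so their values are uncertain. Those of Ndufs6 and Ndufs6b were whole numbers in every library.

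**Figure D1:**
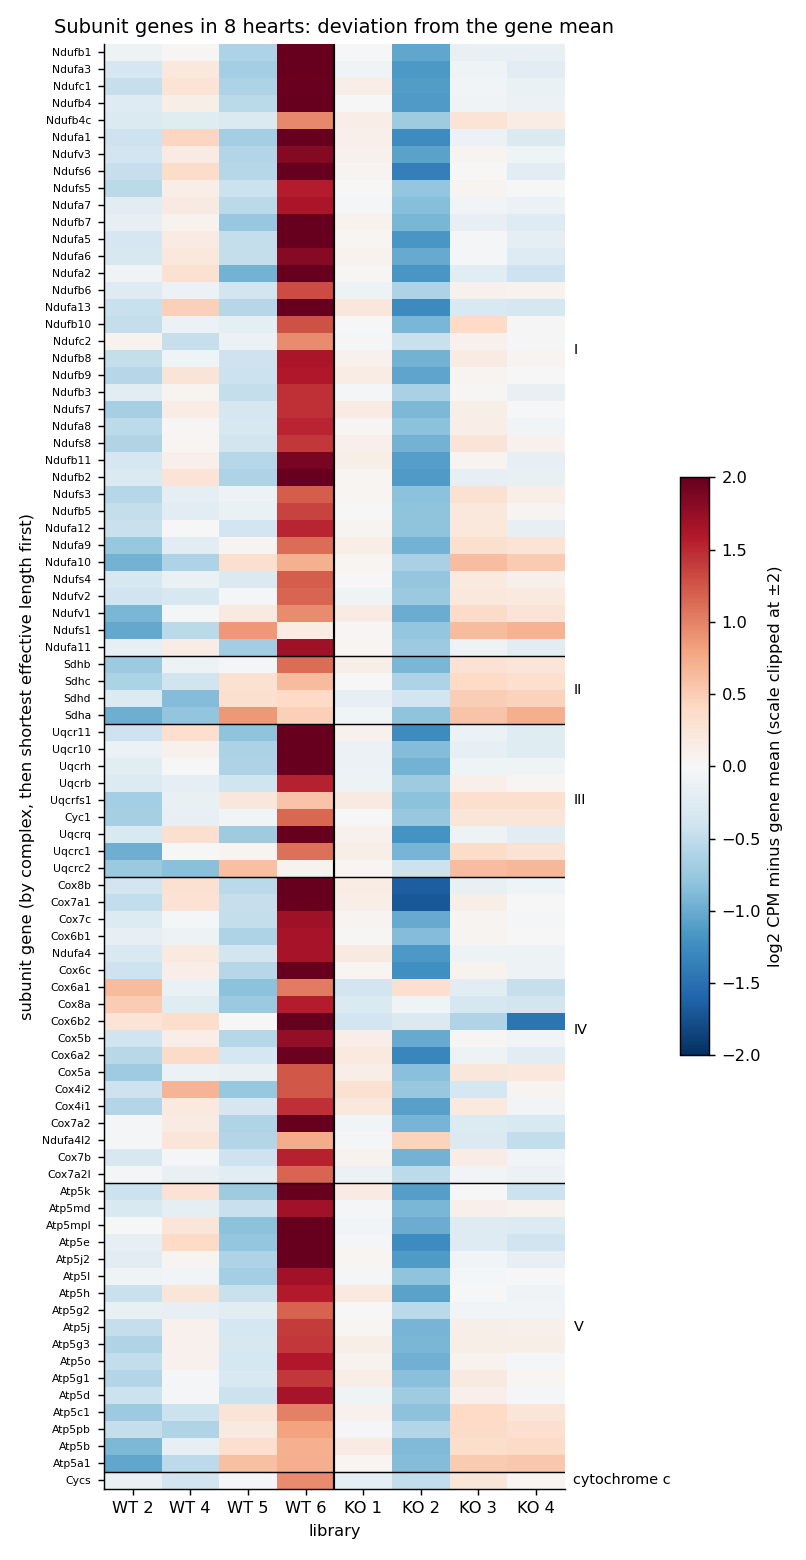
Heat map of 85 of the 86 tested subunit genes (rows, by complex and within a complex from the shortest to the longest effective length) in the 8 libraries (columns, wild type left of the line and knockout right), coloured by log2 CPM minus the gene's mean over the libraries, clipped at ±2. Of the 86 genes, wild-type 6 holds the highest value of 82 and knockout 2 the lowest of 69, while some of the longest genes are also high in wild-type 5, knockout 3 and knockout 4.

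Single libraries set the highest and lowest values of most members, as the heat map of the members shows. On the CPM scale, wild-type 6 was the highest of the 8 libraries for 82 of 86 members, knockout 2 the lowest for 69 and wild-type 2 the lowest for 8. Wild-type 2 and knockout 2 were together the lowest pair for 35 members. The median deviation of the members from their own gene mean was -0.41, 0.022, -0.41 and 1.55 across wild-type hearts 2, 4, 5 and 6, against 0.039, -0.91, 0.066 and -0.044 across knockout hearts 1, 2, 3 and 4 (log2 CPM). Over all tested genes the same medians lay between -0.083 and 0.019.

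Complex I is described by role, with no test between the roles. The 7 catalytic core subunits, which carry the flavin, the iron-sulfur clusters and the quinone site, had a median log2 fold change of -0.29, and the 30 tested accessory subunits, which surround the core, had -0.77. All 37 were short of the threshold, with 35 below 0. The roles also differed in median effective length, at 1294 nt for the core and 418 nt for the accessory subunits. Across all tested members the log2 fold change followed effective length, as described below. Whether the medians of the roles differ apart from length was not tested. Ndufs1, the largest iron-sulfur subunit, had 213, 297, 792 and 479.5 CPM across wild-type hearts 2, 4, 5 and 6, against 439.9, 255, 671 and 703 across knockout hearts 1, 2, 3 and 4. Its highest values came from wild-type 5, knockout 3 and knockout 4, its lowest from wild-type 2 and knockout 2, and the groups overlapped. The log2 fold change of Ndufs1 was 0.21 with a standard error of 0.49 (edgeR unadjusted p = 0.669). Ndufv1, which binds NADH and flavin, had -0.15, with a 95% interval of -1.20 to 0.91. The core subunits Ndufs3, Ndufs7, Ndufs8 and Ndufv2 had -0.29, -0.49, -0.41 and -0.32, and the 6 core subunits named here were above 0 without wild-type 6, at 0.13 to 0.23.

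Ndufa2, a small accessory subunit, had 299, 387, 163 and 1734 CPM across wild-type hearts 2, 4, 5 and 6, against 318, 139.7, 272 and 236 across knockout hearts 1, 2, 3 and 4. Wild-type 6 stood far above the other 7 libraries, which did not separate by genotype. The log2 fold change of Ndufa2 was -1.42 with a standard error of 0.70 (edgeR unadjusted p = 0.0701, adjusted p = 0.99998), and -0.24 without wild-type 6. Ndufa3, the most abundant member of complex I per length, had -1.23 with all libraries and -0.11 without wild-type 6. Ndufa10, an accessory subunit with an effective length of 1149 nt, had a positive value of 0.19, and 0.50 without wild-type 6.

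Complex II had a median log2 fold change of 0.067, with 3 of its 4 genes above 0, and was the 1 complex with a median above 0. The difference from the other complexes was not tested. Sdha, the flavoprotein that oxidises succinate, had 512, 587, 1839 and 1411 CPM across wild-type hearts 2, 4, 5 and 6, against 976, 580.0, 1500.4 and 1673 across knockout hearts 1, 2, 3 and 4. Wild-type 5, knockout 4, knockout 3 and wild-type 6 were high, wild-type 2, wild-type 4 and knockout 2 were low and knockout 1 lay between, so the groups overlapped. Its log2 fold change was 0.12, with a 95% interval of -1.06 to 1.30. Sdhb, the iron-sulfur subunit, had 569, 884, 918 and 2044 CPM across wild-type hearts 2, 4, 5 and 6, against 1029, 500.3, 1159 and 1117 across knockout hearts 1, 2, 3 and 4. Its log2 fold change was -0.21, within -1.27 to 0.84. Sdhc and Sdhd, which anchor the complex in the inner membrane, had 0.014 and 0.18, with intervals of -0.85 to 0.87 and -0.67 to 1.03. All 4 intervals include 0.

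Complex III had values on both sides of 0, with a median of -0.55 and 7 of 9 genes below 0. Uqcrc2, a core protein of the matrix side, had the highest log2 fold change of all members, 0.39 with an interval of -0.59 to 1.37. It stood at 466, 435, 1188 and 820.3 CPM across wild-type hearts 2, 4, 5 and 6, against 798, 580.4, 1200.5 and 1241 across knockout hearts 1, 2, 3 and 4. Wild-type 5 was nearly as high as knockout 3 and 4, so the groups overlapped. Uqcrc1, the other core protein, had -0.19. The electron carriers Cyc1 (cytochrome c1) and Uqcrfs1 (the Rieske iron-sulfur protein) had -0.25 and 0.015. Uqcr11, a small subunit, had 546, 911, 416 and 3910.2 CPM across wild-type hearts 2, 4, 5 and 6, against 768, 303, 665 and 611 across knockout hearts 1, 2, 3 and 4. Here too wild-type 6 was far above the rest, and the log2 fold change was -1.30 with a standard error of 0.72 (edgeR unadjusted p = 0.101) and -0.11 without wild-type 6. Uqcr10, the member of complex III with the smallest unadjusted p (0.0998, edgeR), had -1.08, and -0.14 without wild-type 6. Cycs had -0.27, with an interval of -1.15 to 0.61.

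All 18 tested members of complex IV had log2 fold changes below 0, with a median of -0.71, and 10 of the 18 were below 0 without wild-type 6, with a median of -0.061. Cox4i1, the largest nuclear-encoded subunit of the complex, known to bind ATP, had 1706, 2939, 2038 and 7055 CPM across wild-type hearts 2, 4, 5 and 6, against 2981, 1209, 2935 and 2477 across knockout hearts 1, 2, 3 and 4. The interval of its log2 fold change, -0.52, ran from -1.74 to 0.71. Cox7a2l, a factor that joins complex III to complex IV in supercomplexes, had -0.51, within -1.35 to 0.33. Ndufa4 had -0.76, within -1.97 to 0.45.

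Cox6b2, an isoform of Cox6b1 best known from testis, was the 1 member whose groups did not overlap, against 0.632% of all tested genes. It had 18, 14, 12 and 32 estimated reads across wild-type hearts 2, 4, 5 and 6, against 9, 13, 7 and 4 across knockout hearts 1, 2, 3 and 4. After scaling these were 1.25, 1.33, 1.05 and 4.50 CPM across wild-type hearts 2, 4, 5 and 6, against 0.796, 0.853, 0.685 and 0.377 across knockout hearts 1, 2, 3 and 4. Every knockout library was thus below every wild-type library, by a margin of 1.05 against 0.853 CPM between the nearest 2. The log2 fold change was -1.52 with a standard error of 0.57 (edgeR unadjusted p = 0.0244, adjusted p = 0.99998), and it ranged from -1.74 to -0.83 when 1 library was left out, the smallest size without wild-type 6. Cox6b1, the common form, stood at 5288 TPM against 4.57 for Cox6b2 and had -0.63.

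The balance between isoforms of complex IV does not depend on how libraries are scaled, because both genes are read in the same library. The paired genes do differ in effective length. It was 413 and 292 nt for Cox6a2 and Cox6a1, 124 and 508 nt for Cox7a1 and Cox7a2, and 120 and 299 nt for Cox8b and Cox8a. Whether differences between libraries by transcript length enter the ratios was not tested. Cox6a2, the heart and muscle form, was 3.54 to 21.1 times as abundant in TPM as Cox6a1, the common form. The ratio was 4.85, 15.8, 15.1 and 21.1 across wild-type hearts 2, 4, 5 and 6, against 16.4, 3.54, 11.8 and 13.0 across knockout hearts 1, 2, 3 and 4. Wild-type 2 and knockout 2 were low and the other 6 hearts lay between 11.8 and 21.1, with the genotypes overlapping. The ratio of Cox8b, the form of heart and muscle, to Cox8a was low in the same hearts, at 2.84, 7.63, 6.35 and 8.28 across wild-type hearts 2, 4, 5 and 6, against 7.20, 1.78, 6.19 and 6.25 across knockout hearts 1, 2, 3 and 4. For Cox7a1, the muscle form, against Cox7a2, the ratio was 3.83, 5.74, 6.22 and 5.12 across wild-type hearts 2, 4, 5 and 6, against 6.15, 3.16, 7.23 and 6.38 across knockout hearts 1, 2, 3 and 4.

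For the Cox6a pair, the common form was high and the muscle form low in those 2 hearts. Cox6a1 stood at 1040.5 and 1087 TPM in wild-type 2 and knockout 2 and at 494 to 690.0 elsewhere. Cox6a2 stood at 5050.0 and 3850.0 TPM in them and at 7026 or more elsewhere. For the Cox7a pair the muscle form alone was low in both, since Cox7a2 stood at 1314 and 898 TPM, the latter the lowest of the 8 hearts. Cox8a stood at 1525 and 1297 TPM, the latter below the 1409 of wild-type 6. Wild-type 2 and knockout 2 are the hearts with low cardiomyocyte and high macrophage and fibroblast sums, whose part in the balance was not tested.

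Between the genotypes, the isoform balances differed by less than their spread. Mean log2 ratios of Cox6a2 to Cox6a1 were 3.64 ± 0.93 for wild-type hearts and 3.28 ± 0.99 for knockout hearts (SD over 4 hearts, n = 4; exact two-sided permutation p = 0.514, adjusted over 5 pairs 0.893). The differences, knockout minus wild type, were 0.089 for Cox7a1 to Cox7a2 and -0.30 for Cox8b to Cox8a (exact permutation p = 0.714 and 0.486). Without knockout 2 the differences for Cox6a2 to Cox6a1 and Cox8b to Cox8a were 0.12 and 0.17. Without both wild-type 2 and knockout 2 they were -0.33 and -0.18, and without wild-type 6 as well -0.18 and -0.092. Cox4i2, a form linked to low oxygen and to lung, stood at 32.9 TPM, and its log2 ratio to Cox4i1 was -7.60 ± 0.40 for wild-type hearts and -7.60 ± 0.37 for knockout hearts (SD; exact permutation p = 1). With 4 against 4 hearts this test cannot go below 0.0286.

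For Ndufa4l2, a paralogue of Ndufa4 known to be induced under low oxygen, the ratio to Ndufa4 stood apart in 1 heart. In TPM this ratio was 0.0215 in knockout 2 and 0.00401 to 0.00865 in the other 7 hearts. Ndufa4 itself was lowest in knockout 2, at 3249 TPM against 4516 to 7666 in the other hearts. Ndufa4l2 stood at 39.0, 53.5, 33.9 and 30.7 TPM across wild-type hearts 2, 4, 5 and 6, against 44.6, 69.7, 33.8 and 32.0 across knockout hearts 1, 2, 3 and 4. The highest value was that of knockout 2 and the knockout values enclosed the wild-type values 2, 4 and 5. The log2 ratio differed by 0.39 between the genotypes (exact permutation p = 0.600), and by -0.072 without knockout 2.

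**Figure D2:**
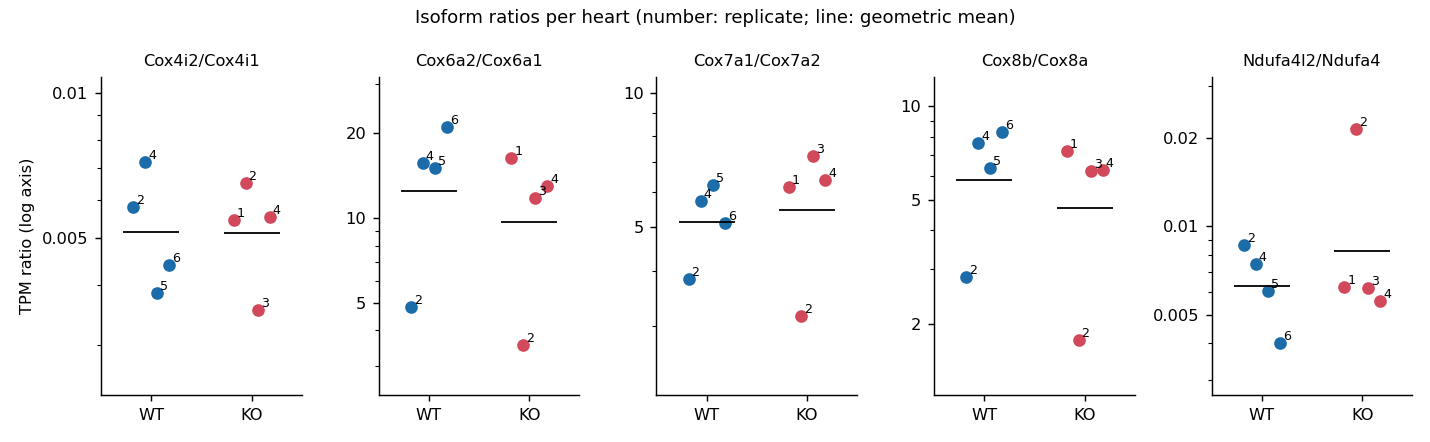
Ratio of TPM of the first to the second isoform in each heart (5 panels, log axes, numbers give the replicate, lines the geometric mean of a genotype). Replicate 2 of both genotypes has the lowest ratio of Cox6a2 to Cox6a1, Cox7a1 to Cox7a2 and Cox8b to Cox8a, and the genotypes overlap in every panel.

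ATP synthase genes had a median of -0.63, with 16 of 17 below 0. In the catalytic head, Atp5a1 and Atp5b, the alpha and beta subunits that bind nucleotide, had log2 fold changes of 0.041 and -0.029 with intervals of -1.15 to 1.23 and -1.12 to 1.06. Atp5b stood at 2806, 4653, 6632 and 8571 CPM across wild-type hearts 2, 4, 5 and 6, against 5862, 2837, 6705 and 6813 across knockout hearts 1, 2, 3 and 4. Wild-type 2 and knockout 2 were the low hearts and wild-type 6 the high one, and the groups overlapped. Atp5e, the small epsilon subunit, had 584, 865, 383 and 3609 CPM across wild-type hearts 2, 4, 5 and 6, against 640.5, 274, 545 and 497 across knockout hearts 1, 2, 3 and 4. Its log2 fold change was -1.48 with a standard error of 0.70 (edgeR unadjusted p = 0.0616), and -0.34 without wild-type 6.

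The genes Atp5g1, Atp5g2 and Atp5g3 encode the same mature subunit c of the rotating ring and differ in their import sequences. Their mean levels were 4925, 1069 and 6449 TPM. Estimated counts can divide reads shared by similar genes. Those of Atp5g1, Atp5g2 and Atp5g3 were whole numbers in every library, so they show no such division. Atp5g1 and Atp5g3 ran from 3169.6 to 5885 and 4019.5 to 7636 TPM with the lowest values in wild-type 2 and knockout 2. Atp5g2 ran only from 933 to 1184 TPM. Log2 fold changes of Atp5g1, Atp5g2 and Atp5g3 were -0.42, -0.45 and -0.45, and 0.21, 0.015 and 0.16 without wild-type 6.

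A few members kept a nearly even level per length. Cox7a2l varied least in TPM, at 485, 502, 531 and 505 TPM across wild-type hearts 2, 4, 5 and 6, against 512, 435, 489 and 507 across knockout hearts 1, 2, 3 and 4, a ratio of highest to lowest of 1.22. Next came Atp5g2 (1.27), Ndufb6 (1.40) and Cycs (1.41). At the other end stood Cox8b with a ratio of 5.06 and Sdha with 4.48, the first highest in wild-type 6 and the second in wild-type 5. The median ratio was 2.36 over the 86 members and 2.68 over the 1126 listed genes with a mean of at least 100 TPM. On the CPM scale Cox7a2l was less even, at 793 in wild-type 6 and 245 to 348 in the other hearts.

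Log2 fold changes followed effective length. The members are short: their median effective length was 441 nt against 2711 nt over all tested genes, and 85 of the 86 were shorter than that median. The 27 members under 300 nt had a median log2 fold change of -0.99, the 31 of 300 to 700 nt -0.59 and the 28 over 700 nt -0.19. All 58 members of the first 2 classes were below 0, and 20 of the 28 long ones. Without wild-type 6 the medians were -0.086, 0.045 and 0.23, with 19 of 27, 11 of 31 and 3 of 28 below 0. The classes were chosen after the values were seen. Across the 86 members, Spearman's correlation of the log2 fold change with effective length was 0.72, and 0.35 across the 12738 tested genes with a length, where genes share libraries and are not independent.

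The same order held over all tested genes, members included. Of 124 genes under 300 nt, 117 were below 0 with a median of -0.94, of 540 genes from 300 to 700 nt 502 with -0.53, and of 12074 longer genes 6111 with -0.0042. By complex, the median effective length was 320.0 nt in complex IV, 424 in V, 440 in I, 986 in II and 1067 in III. Complex II holds long transcripts alone, while complex III mixes 5 long with 4 shorter ones. Among members over 700 nt alone, the medians were -0.29 in complex I (11 genes), 0.067 in complex II (4), -0.19 in complex III (5), -0.51 in complex IV (3) and -0.021 in complex V (4). Without wild-type 6 these 5 medians were all above 0, at 0.20, 0.25, 0.24, 0.026 and 0.28. What sets the order by length was not tested.

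**Figure D3:**
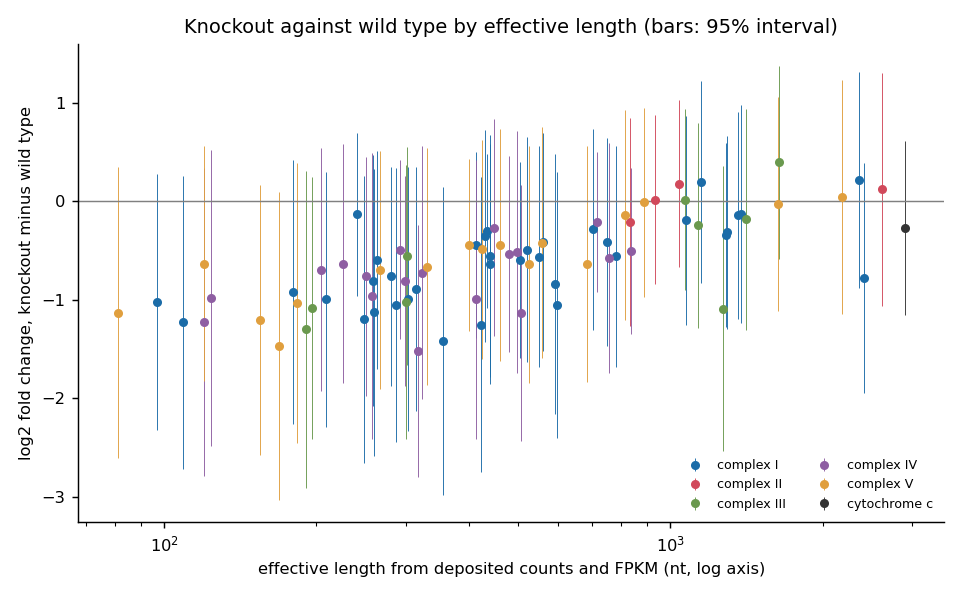
Log2 fold change of each tested subunit gene (knockout minus wild type, bars give the 95% interval) against its effective length in nt on a log axis, coloured by complex. The median goes from -0.99 under 300 nt to -0.19 over 700 nt, and the interval of every gene except Cox6b2 includes 0.

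Within each library, the contrast of long against short members does not depend on the overall scaling. The median deviation of members over 700 nt minus that of members under 300 nt was -0.36, -0.32, 0.67 and -1.04 log2 units across wild-type hearts 2, 4, 5 and 6, against -0.00142, 0.28, 0.39 and 0.39 across knockout hearts 1, 2, 3 and 4. Wild-type 6 had the strongest excess of short transcripts and wild-type 5 the strongest excess of long ones, so the 2 extremes were both wild-type hearts. Over all tested genes the same contrast was -0.51, -0.061, 0.83 and -1.76 across wild-type hearts 2, 4, 5 and 6, against 0.18, 0.23, 0.32 and 0.45 across knockout hearts 1, 2, 3 and 4.

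For long members, the 2 scales place wild-type 6 differently. Sdha stood at 1411 CPM there, between the lowest and highest hearts, yet its TPM of 291 was the lowest but 1, against 1023 in wild-type 5 and 229 in wild-type 2. Uqcrc2 stood at 332, 350.3, 1058 and 269 TPM across wild-type hearts 2, 4, 5 and 6, against 639.7, 525, 877 and 991 across knockout hearts 1, 2, 3 and 4, with wild-type 6 the lowest of all. Short members kept wild-type 6 on top on both scales, as Uqcr11 did at 10291 TPM against at most 6178 elsewhere. On the TPM scale, wild-type 6 was the highest library for 24 of 27 members under 300 nt and for 5 of 28 over 700 nt.

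**Figure D4:**
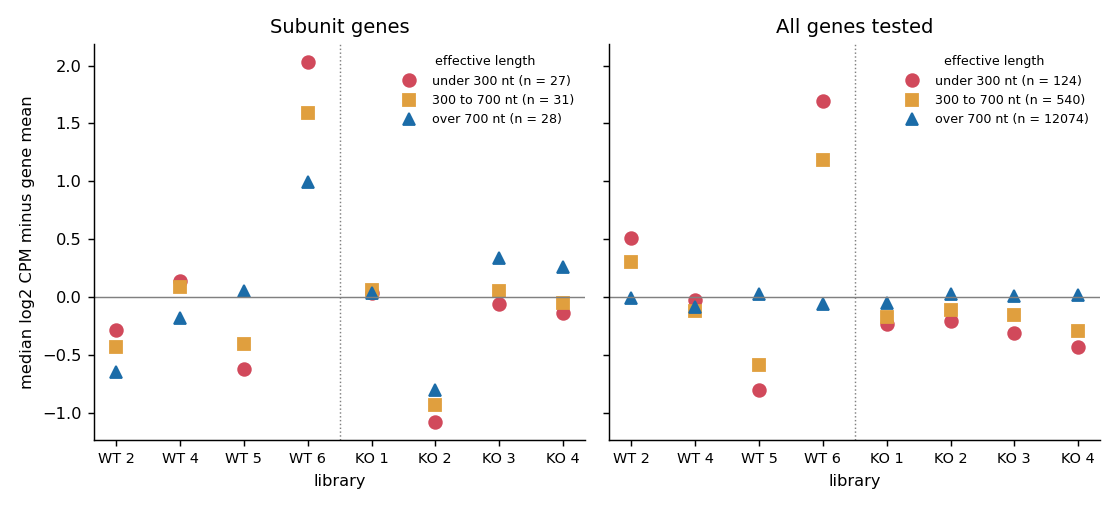
Median log2 CPM minus the gene mean in each library for 3 classes of effective length, for the 86 tested subunit genes (left) and all tested genes (right), wild type left of the dotted line. In wild-type 6 the subunit classes stand at 2.03, 1.59 and 0.99 from short to long, and in knockout 2 at -1.08, -0.93 and -0.80, where classes of all genes stay between -0.21 and 0.026.

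Members were low in knockout 2 and wild-type 2 in all 3 length classes, with medians from -1.08 to -0.80 in knockout 2 and from -0.65 to -0.29 in wild-type 2. In wild-type 5 the classes stood at -0.62, -0.41 and 0.055 from short to long. The 81 tested genes of the cytosolic ribosome, a list of similar effective length (457 nt at the median), stood at 0.93 in wild-type 2 and 0.15 in knockout 2. In wild-type 5 both lists were low, at -0.41 for the subunits and -0.98 for the ribosome. Both lists were high in wild-type 6, at 1.55 for the subunits and 1.63 for the ribosome. The difference between the lists was not tested.

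The direction of the comparison between genotypes turned on wild-type 6. That library also had the highest erythroid sum, raised atrial markers and the lowest scaling factor, whose part in the result was not tested. Without it, medians were 0.045 in complex I, 0.25 in complex II, 0.14 in complex III, -0.061 in complex IV, 0.10 in complex V and 0.080 for Cycs. Without wild-type 2, wild-type 6 and knockout 2, which leaves 2 wild-type and 3 knockout hearts, 9 of the 86 members were below 0 and the median was 0.19. Leaving out only wild-type 2 and knockout 2 kept 77 below 0, with a median of -0.61. In each of these fits 0 members and 3 of all tested genes passed the edgeR test. Members with an unadjusted p under 0.05 numbered 0, 0 and 1, against 0.621%, 1.94% and 1.16% of all genes. Without wild-type 5 alone there were 12 such members, against 6.45% of all genes, and without wild-type 2 alone 6, against 2.26%. The other fits that left out 1 library gave 0 or 1. Leaving out wild-type 6 changed the sign of 45 of the 86 log2 fold changes, and 34 members kept their sign in all 8 fits that left out 1 library.

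**Figure D5:**
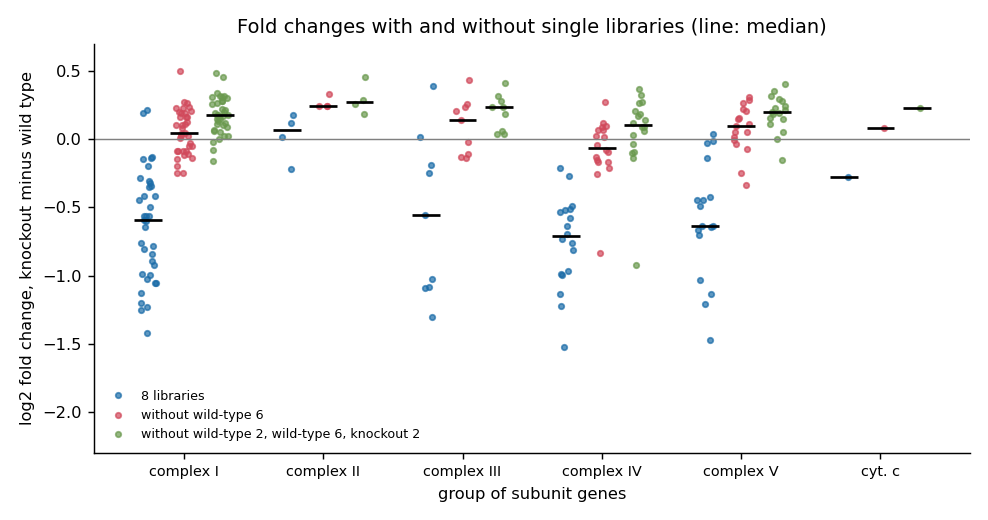
Log2 fold changes of the tested subunit genes by complex (points, knockout minus wild type) with all 8 libraries, without wild-type 6, and without wild-type 2, wild-type 6 and knockout 2, with medians as lines. The median of complex I moves from -0.59 to 0.045 and 0.18, and that of complex IV from -0.71 to -0.061 and 0.11.

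Genes that build and regulate the respiratory chain were compared in the same fit, and 0 of them passed. Of 54 tested assembly factors, 32 were below 0 with a median of -0.061, and of 0.12 without wild-type 6. Ndufaf8 and Uqcc2, assembly factors of complexes I and III, had the smallest unadjusted p among them and stood at -1.23 and -1.07, each highest in wild-type 6. Of 34 genes that copy, transcribe and translate mitochondrial DNA, 10 were below 0 with a median of 0.061, and of 0.17 without wild-type 6. Of these, Slirp, which stabilises mitochondrial messenger RNA, had -0.72 and the tRNA methyltransferase subunit Trmt10c 0.37. Of 14 regulators, such as Ppargc1a, Esrra and Nrf1, 3 were below 0 with a median of 0.12, and of -0.010 without wild-type 6. Gabpa and Yy1, transcription factors of respiratory genes, had 0.19 and 0.14, with intervals of -0.36 to 0.74 and -0.31 to 0.60.

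Import and translation genes were mostly below 0 with all libraries. Of 30 import and outer membrane genes, 26 were below 0, with a median of -0.24 that was 0.028 without wild-type 6. Timm13 and Pam16, small parts of the import machinery, had -1.01 and -0.66. Of 78 mitochondrial ribosomal protein genes, 62 were below 0, with a median of -0.30 that was 0.11 without wild-type 6. Mrpl33 and Mrpl23, proteins of the large subunit, had -1.10 and -0.89. The 81 cytosolic ribosomal genes were all below 0, with a median of -0.996, or -0.47 without wild-type 6. In none of these lists did a gene have an adjusted p under 0.05 in edgeR. At an unadjusted p under 0.05 there were 10, against 0.904% of all genes. Of these 10, 9 were among the 81 cytosolic ribosomal genes, whose median effective length was 457 nt. By length, 14 of the 540 tested genes from 300 to 700 nt and 11 of the 124 under 300 nt had such a p.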

How the data were processed

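Per the labels' protocols, TRIzol extracts of hearts were enriched for poly(A) RNA, and strand-specific paired-end libraries were read on a DNBSEQ instrument. One protocol paragraph names rat tissue, while every sample is labelled mouse. HISAT, Bowtie2 and build GRCm39 stand in the submitters' processing notes, and how reads were counted is not stated there. The authors' single deposited table has estimated counts (expected counts), TPM and FPKM per gene and library, per the file headers, and 8 empty per-sample columns were not used. Deposited TPM has the same total in every library, up to rounding. Deposited FPKM served, with the counts, to compute effective lengths.

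Groups and replicate numbers follow the titles. After rounding of the estimated counts, 12826 genes passed filterByExpr (count 10, total 15). The genotypes were compared with edgeR 4.0.16 in R 4.3.3 (TMM, robust quasi-likelihood F-test, no covariates), with Benjamini-Hochberg adjustment over all genes and a threshold of 0.05. Deviations used log2 CPM with a prior count of 2. Dividing a log2 fold change by the root of its F statistic gave the standard error, and intervals are 95%. Isoform ratios used TPM plus 0.01 and exact permutation over 70 arrangements of the hearts. Lengths were estimated in libraries with at least 20 reads of the gene. Alternatives were DESeq2 1.42.0, RLE and total-count scaling, no filter, a replicate block and libraries left out. The fit was tested on simulated counts. No 2 libraries agreed within sampling noise (chi-square per degree of freedom at least 7.59). Total counts per library were 9065561 to 13492971.

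The members and gene lists were chosen with earlier results of these data known. Genes named were isoform pairs, complex II, cytochromes, the most abundant member and the one with the smallest p of each complex, the 2 most extreme fold changes in each direction (mean CPM at least 1), and 2 examples per further list. Any other gene was named after its values were seen. Atp5if1 is not analysed here. Promoter coordinates are those of the RefSeq table for GRCm38.p6; others are not printed. Some items are not reported here.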

Additional observations from a re-analysis of the deposited data

Results flagged for a closer look

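In 19 of 80 groups of 4 hearts checked, 1 heart lay so far from the other 3 that its gap to the nearest of them exceeded the 95% critical value of Dixon's ratio, where chance gives about 1 in 20. The groups share hearts and are not independent.

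Wild-type 6 stood far above the other 3 wild-type hearts in 11 genes on the CPM scale: Ndufa3 at 1729 CPM (others 218 to 401), Ndufa2 at 1734 CPM (others 163 to 387), Uqcr11 at 3910.2 CPM (others 416 to 911), Uqcr10 at 2645 CPM (others 408 to 671), Cox6b2 at 4.50 CPM (others 1.05 to 1.33), Atp5e at 3609 CPM (others 383 to 865), Cox7a2l at 793 CPM (others 303 to 348), Ndufa4 at 3774 CPM (others 936 to 1386), Cox7a1 at 3235 CPM (others 540.4 to 931), Cox7a2 at 2396 CPM (others 387 to 654) and Cox8b at 2886 CPM (others 401 to 721).

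Knockout 2 stood far below the other 3 knockout hearts in 3 genes: Atp5g3 at 1308 CPM (others 2668 to 2688), Cox7a2l at 245 CPM (others 326 to 340.5) and Cox7a1 at 234 CPM (others 758 to 833). Its share of all TPM was 1.22% for complex III (1.93% to 2.06% in the other knockout hearts), 3.897% for complex V (6.48% to 6.91%) and 0.372% for the catalytic core of complex I (0.667% to 0.695%). Its ratio of Ndufa4l2 to Ndufa4 was 0.0215, against 0.00556 to 0.00624 in the other knockout hearts.

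Wild-type 5 held 0.0540% of TPM in Cycs, against 0.0384% to 0.0399% in the other wild-type hearts.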

How the results depend on the processing

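No member passed the edgeR or DESeq2 test under any alternative run. The members' median stayed below 0 with RLE (-0.60) and total-count scaling (-0.35; this scaling moved the median of all genes by 0.10), without a filter and with DESeq2. It ran from -0.79 to 0.060 with 1 library left out, above 0 without wild-type 6 alone. The ranges were -0.80 to 0.045 in complex I, -0.13 to 0.26 in II, -0.74 to 0.14 in III, -0.94 to -0.061 in IV and -0.83 to 0.10 in V. Over all genes 4 were called, 8 with DESeq2 and 2 to 3 with 1 library left out (2 without wild-type 4 or wild-type 5). With the replicate number as a block, which rests on the shared numbers 2 and 4, 168 genes were called and 0 members. At an unadjusted p under 0.05 there were 10 of 86 members, against 11.3% of all genes. The labels do not say that a number pairs hearts; deviations of same-numbered hearts correlated across genes at 0.91 for number 2 and 0.11 for number 4. Under the block the median was -0.30 over all members (65 of 86 below 0), -0.27 in complex I, 0.49 in II, -0.11 in III, -0.39 in IV and -0.18 in V, and Sdhb stood at 0.077, Cycs stood at 0.032 and Cyc1 stood at 0.16, of opposite sign.

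Without wild-type 2, wild-type 6 and knockout 2 the medians were 0.19 over all members, 0.18 in complex I, 0.24 in III, 0.11 in IV, 0.20 in V and 0.23 for Cycs. Signs turned for Ndufa3 (0.053), Ndufa2 (0.00350), Sdhb (0.29), Uqcr11 (0.041), Uqcr10 (0.064), Atp5g3 (0.23), Cycs (0.23), Cyc1 (0.28), Cox7a2l (0.091), Ndufa4 (0.058), Cox4i1 (0.17), Cox6a1 (0.088), Cox7a1 (0.12), Cox8a (0.14) and Cox8b (0.035), and for the log2 ratio of Ndufa4l2 to Ndufa4 (-0.17). The cause was not tested.

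With 1 library left out, 52 of the 86 log2 fold changes took the other sign at least once. Among genes named by rule these ranged as Sdhb -0.43 to 0.25, Sdhd -0.013 to 0.34, Atp5g3 -0.66 to 0.16, Cycs -0.41 to 0.080, Sdha -0.11 to 0.50, Sdhc -0.16 to 0.24, Cyc1 -0.45 to 0.24, Ndufa4l2 -0.42 to 0.026, Cox4i1 -0.74 to 0.088 and Ndufs1 -0.015 to 0.65. Among the others named they ranged as Ndufs3 -0.48 to 0.23, Ndufs7 -0.72 to 0.13, Ndufs8 -0.63 to 0.21, Ndufv1 -0.38 to 0.20, Ndufv2 -0.48 to 0.16, Ndufa10 -0.022 to 0.50, Uqcrc1 -0.43 to 0.26, Uqcrfs1 -0.16 to 0.23, Cox6b1 -0.87 to 0.12, Atp5a1 -0.20 to 0.29, Atp5b -0.25 to 0.22, Atp5g1 -0.63 to 0.21 and Atp5g2 -0.58 to 0.015. Isoform differences ranged as Cox4i2/Cox4i1 -0.15 to 0.17, Cox6a2/Cox6a1 -0.82 to 0.12, Cox7a1/Cox7a2 -0.052 to 0.35, Cox8b/Cox8a -0.64 to 0.17 and Ndufa4l2/Ndufa4 -0.072 to 0.58. None of the isoform alternatives passed the exact permutation test. With both replicates 2 left out (3 against 3) or wild-type 6 as well (2 against 3), an exact permutation test cannot go below 0.10, so those 2 tests say nothing about stability.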
